A study of Saccharomyces cerevisiae with 36 samples.

Results

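The eco1-W216G mutant of budding yeast was followed through the later part of amino acid starvation, and RNA levels 55 min after the change of medium were compared with those at 15 min. The comparison rests on 6 of the 36 arrays of the series, the 3 eco1-W216G arrays at 55 min and the 3 at 15 min, taken by their titles. The arrays at 35 and 0 min of the same strain, and those of the cohesin loader mutant scc2-D730V and of wild type (WT), are shown only where the change is set beside them. Cells grew exponentially in rich medium (YPD+CSM, time 0), were spun down and were resuspended in minimal medium with no amino acids. All strains were haploid MATa of the W303a background with BAR1 deleted and with mutant alleles of ADE2, CAN1, HIS3, LEU2, TRP1 and URA3, and in each mutant a HYG marker goes with the altered allele. The strain table names a single isolate for eco1-W216G. The 3 arrays of a group stand for 3 independent cultures.

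Eco1 acetylates the Smc3 subunit of cohesin, the ring complex that holds sister chromatids together, and the W216G change lowers this activity. Yeast that lose amino acids hold back ribosome production and switch on the synthesis of amino acids through the kinase Gcn2 and the activator Gcn4. A sudden change of medium also brings on the environmental stress response, which includes the storage carbohydrates glycogen and trehalose and fades as cells adapt. The comparison of 55 with 15 min follows what came after this first response.

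The array gives each probe set an intensity, and all levels below are log2 of that intensity. A difference of 1 unit is a 2-fold change, and levels are comparable between arrays but not between genes. Because every array is scaled to the same distribution, a change is relative to the other RNAs, and an overall change in RNA per cell cannot be seen. A probe set was called at an adjusted p under 0.05 from limma and a change of at least 1.4-fold. The median level of an array lay between 10.95 and 11.14 over all 36 arrays, and the 9 pairs of a 55 min with a 15 min array correlated at 0.9703 to 0.9901 across probe sets. As a rough check of the cell type, since probe sets differ in brightness, the a-specific mating genes that MATa cells express had a median of 13.76 over 6 genes at 55 min and 13.07 at 15 min. The 4 alpha-specific genes had medians of 7.42 and 7.54, and the 20 meiotic genes 8.39 and 8.44. In the alpha-specific list SAG1 alone was bright, at 11.97 and 11.63. Deleted BAR1 read 4.44, 4.68 and 4.54 at 55 min and 4.58, 4.71 and 4.48 at 15 min, which marks the floor of the arrays. ECO1 itself read 6.19, 7.45 and 6.44 at 55 min and 6.19, 6.36 and 6.13 at 15 min, and was not called. Its WT change was -0.83, and the difference of 1.30, eco1-W216G minus WT, was called (adjusted p = 0.0361 from limma). The strains began the interval apart for ECO1, with 15 min means of 6.23 in eco1-W216G and 8.55 in WT.

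Between 15 and 55 min of starvation 78 probe sets rose in eco1-W216G, 1.35% of the 5763 tested, and 59 fell, 1.02%, which makes 137 or 2.38% in all. Genes of lysine, biotin and vitamin B6 synthesis were among those that rose, and genes of glycogen and trehalose synthesis, glucose transporters and amino acid permeases among those that fell. The median change was 0.74 over the probe sets that rose and -0.87 over those that fell, on the log2 scale. For every called probe set the 3 arrays at 55 min lay wholly beyond the 3 at 15 min. Over all tested probe sets this separation was found upward in 15.6% and downward in 13.7%. At an unadjusted p under 0.05 limma gave 1017 probe sets.

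The counts depended on single arrays, most on the 15 min array of replicate 2. Across all probe sets the 15 min arrays correlated at 0.9857 to 0.9882 with each other. The mean level of replicate 2 over 64 genes of 40S assembly was 9.23, against 9.93 and 10.04 in replicates 1 and 3. Without this array 16 probe sets rose and 7 fell. Without the 55 min array of replicate 2 the counts were 20 and 17, without that of replicate 1 they were 30 and 19, and without the 15 min array of replicate 3 they were 55 and 29. All 137 called changes kept their direction with any of the 6 arrays left out. This was fixed in advance, since their arrays at 55 and 15 min did not overlap. Of the 137, 16 kept the call each time. Of these 16, 9 had risen, which are JLP1, BIO5, TRM5, YNR068C, UGA3, LYS9, STB4, YMC1 and PFF1. The 7 that had fallen are HXT4, RPS9A, PGM2, YJR096W, BAP3, RPS22B and a probe set with no gene name. Each of the remaining calls was lost without at least 1 array.

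JLP1, a dioxygenase that releases sulfur from sulfonates (YLL057C, at 25756 to 26994 on chromosome XII in assembly R64), led the increases. It read 12.81, 13.84 and 12.39 at 55 min and 11.24, 11.10 and 10.93 at 15 min. These groups did not overlap, although the 55 min arrays were spread over more than a unit. The change was 1.93 (standard error 0.29), a 3.80-fold increase, with an adjusted p of 0.000532 from limma.

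TRM5, which methylates guanosine in tRNA (YHR070W, chromosome VIII from 234881 to 236380), had the smallest adjusted p among the increases. Its arrays read 11.53, 11.83 and 11.81 at 55 min and 10.44, 10.06 and 10.57 at 15 min. All 3 arrays at 55 min were higher by most of a unit or more. The change was 1.37 (standard error 0.19, adjusted p = 0.000356 from limma). PDC6, a minor pyruvate decarboxylase, read 12.92, 13.60 and 12.56 at 55 min and 11.94, 11.63 and 11.06 at 15 min, a change of 1.49 that followed a call upward in the first 15 min. YHK8, a presumed drug transporter, read 11.04, 11.03 and 10.24 at 55 min and 9.18, 9.11 and 8.85 at 15 min, a change of 1.72. TEA1, a transcription activator of Ty elements, rose by 1.12, TAH18, which serves in the assembly of iron-sulfur proteins, by 1.07 and YAT1, a carnitine acetyltransferase, by 1.06. The calls of PDC6, YHK8, TEA1, TAH18 and YAT1 were each lost without at least 1 array, with adjusted p of up to 0.171.

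**Figure D1:**
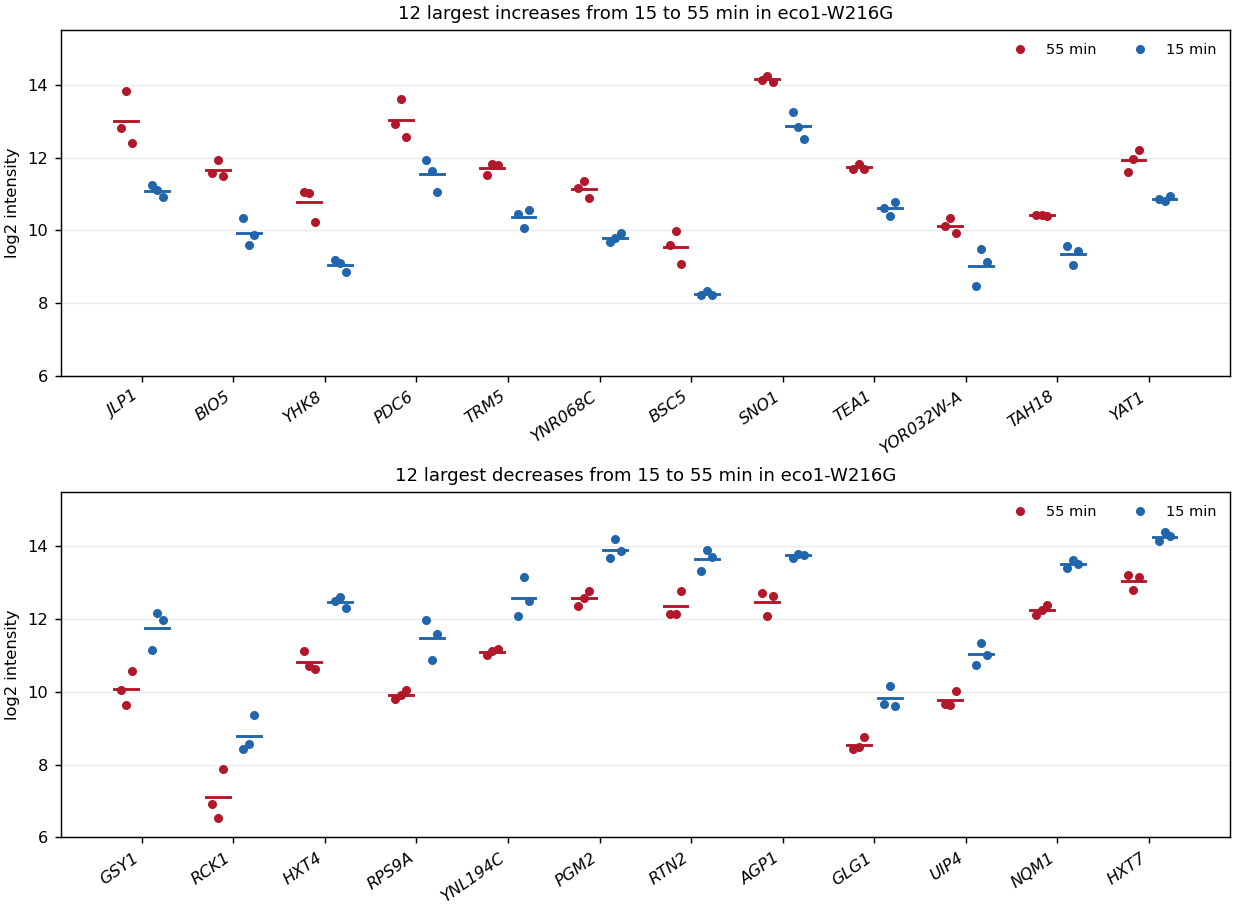
Log2 intensity in eco1-W216G of the 12 genes with the largest increase (top) and the 12 with the largest decrease (bottom) among those called. Each point is an array, 55 min on the left in red and 15 min on the right in blue, and bars are means of 3 arrays. The 2 groups of arrays do not overlap for any of the 24 genes, and JLP1 (change 1.93) and GSY1 (change -1.68) lead the panels.

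The genes of biotin and vitamin B6 synthesis held several of the strong increases. Of 23 measured genes of vitamin B6, thiamine and biotin, 6 rose and none fell, with a list median of 0.17, beside 75 and 53 of 5449 genes and a median of 0.01 over all genes. BIO5 carries biotin precursors into the cell, and BIO3 and BIO4 encode the next enzymes of the pathway. The 3 genes are neighbours on chromosome XIV, between 731618 and 735733. BIO5 read 11.59, 11.92 and 11.49 at 55 min and 10.34, 9.60 and 9.87 at 15 min. Its lowest array at 55 min was above its highest at 15 min by more than a unit, and the change was 1.73 (standard error 0.32, adjusted p = 0.00296 from limma). BIO3 rose by 0.78 and BIO4 by 0.79, and VHR1, a transcription factor of the biotin genes, by 0.70. SNO1 and SNZ1, a divergent pair on chromosome XIII whose products make vitamin B6, rose by 1.28 and 0.56. SNO1 read 14.13, 14.24 and 14.08 at 55 min and 13.25, 12.84 and 12.51 at 15 min. Its 55 min arrays lay close together and all were above the 15 min arrays. In this list BIO5 alone kept its call with each of the 6 arrays left out.

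Lysine synthesis was the amino acid pathway with the most calls. Of its 9 measured genes 4 rose, beside 1.35% of all probe sets, and the list median was 0.52. All 9 had arrays that separated upward, beside 15.6% of all probe sets. In WT all 9 were called higher, beside 15.7% of all probe sets in that strain, with a median of 0.81. In scc2-D730V 8 were called higher, beside 14.8%, with a median of 0.78. LYS9, a saccharopine dehydrogenase near the end of the pathway, read 13.23, 13.29 and 13.16 at 55 min and 12.55, 12.12 and 12.32 at 15 min. Its change was 0.90 (standard error 0.14, adjusted p = 0.000945 from limma), and it kept its call with each array left out, with an adjusted p of at most 0.0162. LYS4, the homoaconitase, rose by 0.72, LYS12, the homoisocitrate dehydrogenase, by 0.59 and LYS2, the aminoadipate reductase, by 0.52. LYS20 and LYS21, the homocitrate synthases of the first step, had changes of 0.63 and 0.43 with adjusted p of 0.209 and 0.166. The changes of LYS14, the activator of the pathway, and LYS5, which activates Lys2, were 0.46 and 0.32, with adjusted p of 0.0265 and 0.0482 but under 1.4-fold. Without the 15 min array of replicate 2 the list median was 0.43, and the calls of LYS2, LYS4 and LYS12 were lost.

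The other amino acid pathways held at most 2 calls upward each, beside 1.35% of all probe sets called higher. GCN4, the activator of these pathways, read 14.72, 14.67 and 14.71 at 55 min and 14.65, 14.61 and 14.63 at 15 min, a change of 0.07 with an adjusted p of 0.652. GCN2, the kinase that senses uncharged tRNA, rose by 0.55 and was the 1 call among 11 genes of that pathway. ARG8, an aminotransferase of ornithine synthesis, rose by 0.85 as the only call among 8 arginine genes, and none of the 6 listed histidine genes was called, with a median of 0.30. HIS3, a histidine gene that is mutated in all strains and was not listed, rose by 0.80. In the aromatic pathway ARO1, which catalyses most steps to chorismate, and TRP2, of anthranilate synthase, rose by 0.52 and 0.49. ARO1 read 14.47, 14.40 and 14.56 at 55 min and 13.92, 13.94 and 14.00 at 15 min, with a gap between the groups wider than the spread within either. ILV1, the threonine deaminase that starts isoleucine synthesis, rose by 0.49 as the only call among 12 genes of branched-chain synthesis. None of 29 genes of sulfate assimilation and methionine was called, and their median was 0.02 after a median change of 2.63 in the first 15 min. ALA1 rose by 0.49 among 19 listed genes of cytosolic aminoacyl-tRNA synthetases, a list that does not hold every synthetase, with a median of 0.23. The calls of GCN2, ARG8, ARO1, TRP2, ILV1 and ALA1 were each lost without at least 1 array.

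Genes of nitrogen use moved in both directions. UGA3, the activator that responds to GABA, read 12.35, 12.56 and 12.56 at 55 min and 11.46, 11.52 and 11.74 at 15 min, a change of 0.92 (standard error 0.15, adjusted p = 0.00105 from limma). Its neighbour on chromosome IV, the glutamate synthase GLT1, rose by 0.83. Among 25 genes under nitrogen catabolite repression 3 rose, beside 1.35% of all probe sets, and none fell, with a median of 0.11. These were DAL5, the allantoate permease (0.87), DAL7, a malate synthase (0.54), and MEP2, an ammonium permease (0.53). Glutamate decarboxylase GAD1, which makes GABA, read 12.53, 12.61 and 12.76 at 55 min and 13.53, 13.85 and 13.64 at 15 min, and fell by 1.04. In this set UGA3 kept its call with each array left out.

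Among 20 amino acid permeases AGP1 and BAP3 fell, beside 1.02% lower among all probe sets, and the list as a whole had a median change of 0.01. AGP1, a permease of wide specificity (chromosome III from 76018 to 77919), read 12.72, 12.09 and 12.63 at 55 min and 13.69, 13.80 and 13.78 at 15 min. Its change was -1.27 (standard error 0.30, adjusted p = 0.0174 from limma). BAP3, which takes up branched-chain amino acids, read 12.39, 12.16 and 12.38 at 55 min and 13.30, 13.42 and 13.58 at 15 min, a change of -1.12 (adjusted p = 0.00249). Every array at 55 min was lower than every array at 15 min for both genes. The peptide transporter PTR2 fell by 0.93. The list includes BIO5, its 1 member that rose, and 12 of its changes were positive. AGP3 had a change of 0.79 with an adjusted p of 0.0911. The call of AGP1 was lost without at least 1 array (adjusted p up to 0.115) and that of BAP3 was not.

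The storage carbohydrates had the lowest list median. Of 18 genes of trehalose and glycogen 8 fell and none rose, beside 1.02% lower among all probe sets, and the median change was -0.62. In WT 14 of the 18 fell, beside 13% of all probe sets there, with a median of -0.88. In scc2-D730V 16 fell, beside 10.8%, with a median of -1.10. GSY1, a glycogen synthase (YFR015C, chromosome VI from 174265 to 176391), read 10.05, 9.64 and 10.56 at 55 min and 11.16, 12.16 and 11.98 at 15 min. Its change of -1.68 (standard error 0.44, adjusted p = 0.0389 from limma) was the largest decrease, and at 55 min it was back near its mean of 10.23 at time 0. The second glycogen synthase, GSY2, read 12.28, 12.21 and 12.52 at 55 min and 13.11, 13.81 and 13.44 at 15 min, a change of -1.12. PGM2, the phosphoglucomutase that feeds both sugars, read 12.36, 12.58 and 12.78 at 55 min and 13.68, 14.19 and 13.87 at 15 min. Its change of -1.34 (standard error 0.24, adjusted p = 0.00284 from limma) held with each array left out.

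The other calls in this list spanned the pathway. GLG1, the glycogenin that primes glycogen, fell by 1.27, the debranching enzyme GDB1 by 1.03, the branching enzyme GLC3 by 1.02, the trehalose phosphate phosphatase TPS2 by 0.75 and UGP1, which makes UDP-glucose, by 0.52. All 8 genes had been called higher at 15 min than at time 0, where the list median was 1.28. Over all probe sets 19.5% had risen and 21.7% had fallen in those first 15 min. At 55 min the list median was still 0.76 above time 0. Without the 15 min array of replicate 2 the median change from 15 to 55 min was -0.49, and of the 8 calls PGM2 alone held in all 6 omissions.

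Of 41 measured general stress genes 6 fell, beside 1.02% lower among all probe sets, and none rose. The changes of 35 did not pass the test, and 37 of the 41 had a negative change, with a median of -0.47. In WT 19 of the 41 fell, beside 13% of all probe sets there, and 2 rose, with a median of -0.55. In scc2-D730V 21 fell, beside 10.8%, and 2 rose, with a median of -0.72. RTN2, a reticulon-like protein of the endoplasmic reticulum, read 12.15, 12.14 and 12.77 at 55 min and 13.33, 13.91 and 13.70 at 15 min, a change of -1.29. NQM1, a transaldolase, fell by 1.26, the glutathione peroxidase GPX1 by 1.19, the catalase CTT1 by 0.94, DCS2, an inhibitor of mRNA cap breakdown, by 0.79 and the glyoxalase GLO1 by 0.49. HSP26, a small heat shock protein, read 13.54, 13.14 and 13.69 at 55 min and 13.72, 13.79 and 13.91 at 15 min, a change of -0.35 with an adjusted p of 0.683. None of the 6 calls held in all 6 omissions. RCK1, a kinase of the oxidative stress response that is not in the list, read 6.92, 6.52 and 7.89 at 55 min and 8.43, 8.57 and 9.35 at 15 min, a change of -1.67 that brought 2 arrays down to its level at time 0.

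Of 16 hexose transporters HXT4 and HXT7 fell, beside 1.02% lower among all probe sets, and the list median was -0.19. HXT4 (YHR092C, chromosome VIII from 287081 to 288811), a transporter of high affinity, read 11.12, 10.72 and 10.62 at 55 min and 12.49, 12.62 and 12.32 at 15 min. No other decrease had a smaller adjusted p, with a change of -1.65 (standard error 0.26, adjusted p = 0.000945 from limma). At 35 min its arrays already read 11.36, 10.24 and 10.76. HXT7 read 13.20, 12.80 and 13.15 at 55 min and 14.15, 14.39 and 14.28 at 15 min, a change of -1.22 whose call did not hold in any of the 6 omissions. HXT6 and HXT7 are nearly identical, so their signals can be shared. HXT1, a transporter of low affinity, had a change of 1.14 in the other direction with an adjusted p of 0.0798, and its arrays did not overlap (12.58, 12.47 and 12.31 at 55 min and 11.38, 11.17 and 11.40 at 15 min).

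Ribosome assembly genes had positive changes that did not pass the test, and 2 ribosomal protein genes fell, beside 2.38% of all probe sets called. None of 64 genes of 40S assembly and none of 71 of 60S assembly was called, although 62 and 70 of them had a positive change. Their medians were 0.52 and 0.51, and 8 and 9 of them had an unadjusted p under 0.05. Mean levels over the 40S assembly genes were 10.26, 10.10 and 10.40 at 55 min and 9.93, 9.23 and 10.04 at 15 min. These groups were separate by a small margin, and without the 15 min array of replicate 2 the medians of both lists were 0.27 and 0.26. The median standard error of a change was 0.39 in the 40S assembly genes, against 0.17 over all probe sets. Cytosolic ribosomal proteins of the large subunit had a median of -0.08 and none of 75 was called. Those of the small subunit had a median of -0.07 and 2 of 53 fell.

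Both small subunit genes that fell kept their call in all 6 omissions. RPS9A (YPL081W, chromosome XVI from 404950 to 406044) read 9.81, 9.92 and 10.05 at 55 min and 11.97, 10.89 and 11.60 at 15 min, a change of -1.56 (standard error 0.28, adjusted p = 0.00296 from limma). RPS22B read 12.25, 11.62 and 11.75 at 55 min and 13.10, 12.79 and 12.73 at 15 min, with an adjusted p of 0.00365 from limma. Each of the 2 genes has a near-identical partner in the genome, RPS9B and RPS22A, so what each probe set reads is uncertain. The 71 mitochondrial ribosomal proteins had a median of -0.26, and 70 of them were negative, with no call. Proteasome genes were alike, with 34 of 35 negative, a median of -0.25 and no call.

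**Figure D2:**
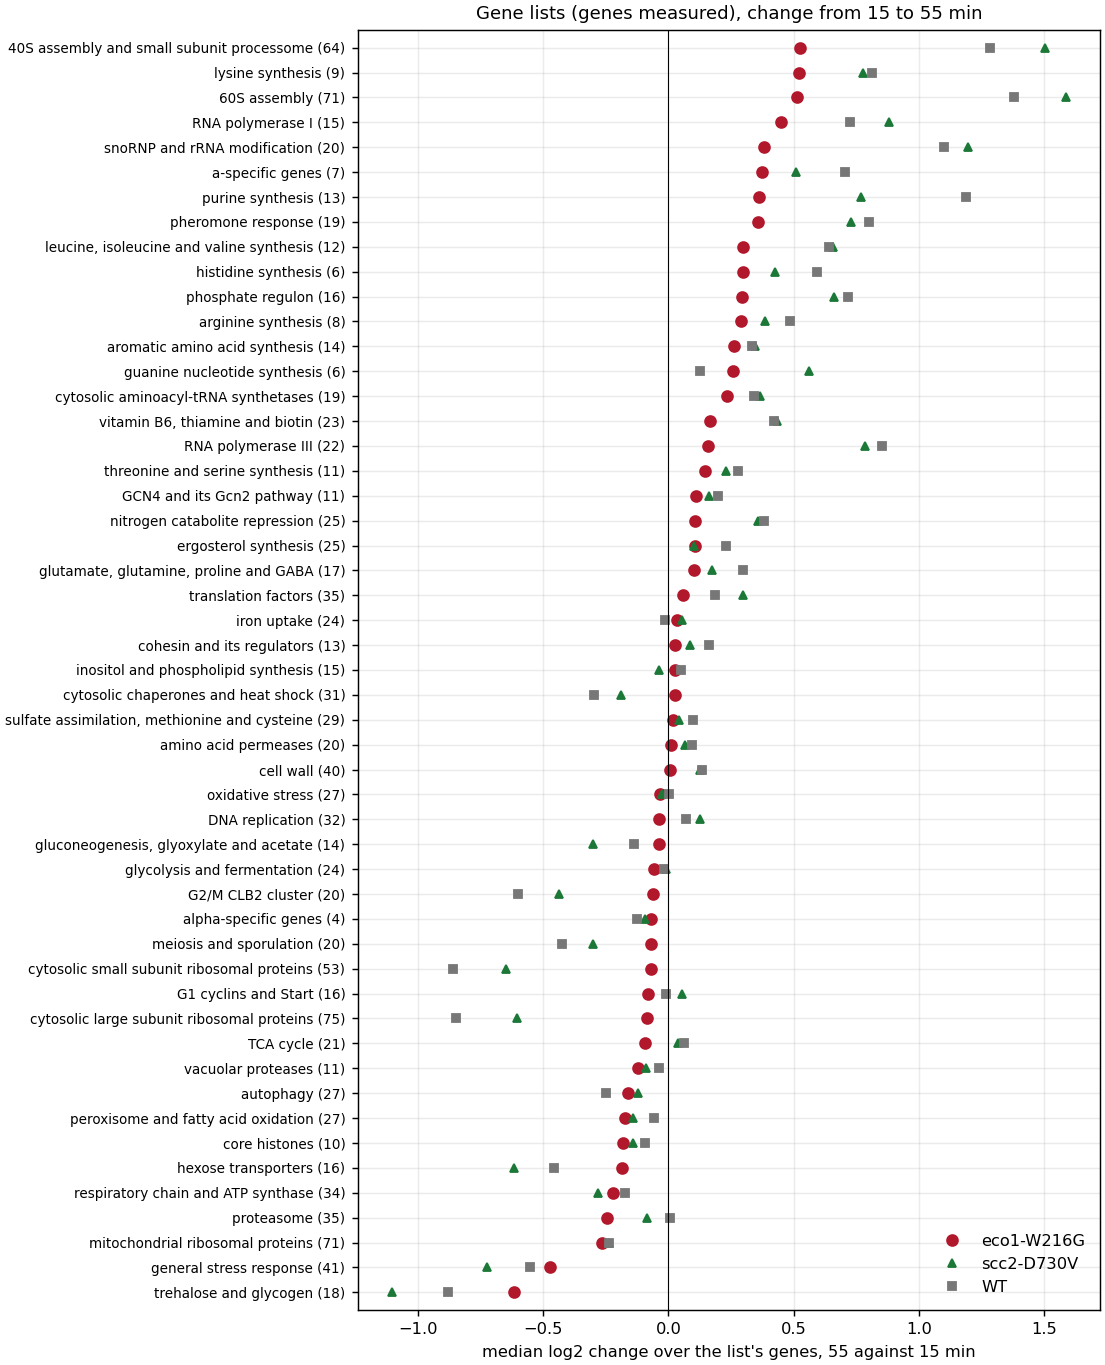
Median log2 change from 15 to 55 min over the measured genes of each of 51 lists, in eco1-W216G (red circles), scc2-D730V (green triangles) and WT (grey squares), with the number of genes in parentheses. The eco1-W216G medians run from -0.62 for trehalose and glycogen to 0.52 for 40S assembly, and for the 40S and 60S assembly lists and the cytosolic ribosomal protein lists the WT medians lie farther from 0.

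Of 16 genes of the phosphate regulon 3 rose, beside 1.35% of all probe sets, and none fell, with a median of 0.30. PHO5, the secreted acid phosphatase (chromosome II from 429548 to 430951), read 12.67, 12.68 and 12.68 at 55 min and 11.98, 11.60 and 11.65 at 15 min, a change of 0.93, and VTC2 and VTC3, which make polyphosphate, rose by 0.61 and 0.50. Of 19 pheromone response genes SST2, which turns the G protein off, and AGA1, an anchor of the agglutinin, rose by 0.92 and 0.94, and 18 had a positive change, with a median of 0.36. SST2 read 11.21, 11.40 and 11.11 at 55 min and 10.31, 10.43 and 10.21 at 15 min. MFA1, which encodes a-factor, rose by 0.76. ADE6 and ADE8, of purine synthesis, rose by 0.65 and 0.68 among 13 genes with a median of 0.36. Calls in these groups were each lost without at least 1 array. Lists for cohesin and its regulators, DNA replication, G1 cyclins and the G2/M CLB2 cluster held no calls, with medians between -0.08 and 0.03. Among core histones HTA2, which encodes H2A, fell by 0.66 through a probe set that is not its brightest, and no other was called.

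At 35 min nearly all called genes were on the way between their 2 levels. The 35 min mean lay between the 15 and 55 min means for all 78 probe sets that rose and for 57 of the 59 that fell. At the median, 63.1% of the increase and 62% of the decrease had been made by 35 min, as a description of genes chosen for the whole interval. Over 35 against 15 min only 2 probe sets were called, both lower (0.0347% of those tested), HXT4 with a change of -1.69 (adjusted p = 0.00319) and KGD1, a subunit of the alpha-ketoglutarate dehydrogenase, with -0.54 (adjusted p = 0.0499 from limma). At an unadjusted p under 0.05 there were 459. Over 55 against 35 min 0 were called (0%), with 135 at an unadjusted p under 0.05.

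The rises and falls differed in how they related to the first 15 min. Of the 59 probe sets that fell after 15 min, 41 had risen between 0 and 15 min, 2 had fallen and 16 had no call. At 55 min 27 of them were still called higher than at time 0, 12 were lower and 20 were not called. Of the 78 that rose, 24 had already risen by 15 min, 11 had fallen and 43 had no call, and at 55 min 50 were higher and 2 lower than at time 0. The 2 were PHO5 and the magnesium transporter ALR1, at -0.71 and -0.52 from time 0. These counts share the 15 min or the 55 min arrays with the choice of the genes, so they describe the course and test nothing. Over all probe sets 40.3% were called between 55 and 0 min, 19.4% higher and 20.9% lower.

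**Figure D3:**
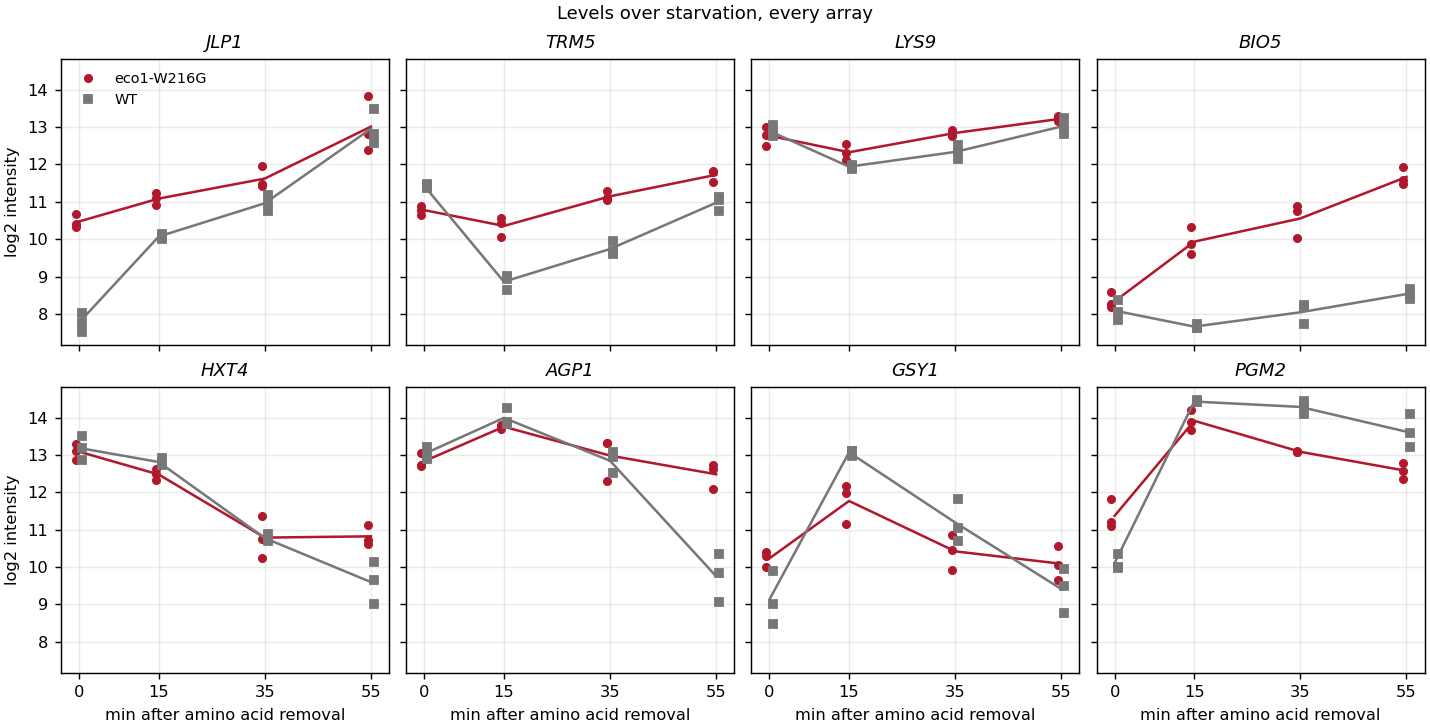
Log2 intensity of 8 named genes at 0, 15, 35 and 55 min in eco1-W216G (red circles) and WT (grey squares). Points are arrays and lines join means of 3 arrays. In eco1-W216G the storage genes GSY1 and PGM2 peak at 15 min, HXT4 is down by 35 min, and JLP1 and BIO5 are highest at 55 min, while AGP1 has a mean of 12.48 at 55 min in eco1-W216G against 9.75 in WT.

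The change from 15 to 55 min was smaller in eco1-W216G than in WT for many genes. Its SD over all probe sets was 0.32 in eco1-W216G and 0.67 in WT. In WT 904 probe sets rose over the same interval (15.7%) and 749 fell (13%), and in scc2-D730V 854 rose (14.8%) and 624 fell (10.8%), 28.7% and 25.6% in all. Of the 904, 72 were called higher in eco1-W216G and 885 (97.9%) had a positive value there, with a median of 0.39 in eco1-W216G and 0.85 in WT. Of the 749, 45 were called lower in eco1-W216G and 680 (90.8%) had a negative value, with medians of -0.27 in eco1-W216G and -0.84 in WT. Both sets were chosen by their call in WT, which favours larger values in WT. In scc2-D730V the medians over the same sets were 0.79 and -0.70. Over all probe sets 77.3% had the same sign in both strains. Over all probe sets the changes in eco1-W216G and WT correlated at 0.745, and those in eco1-W216G and scc2-D730V at 0.815, across probe sets that are no replicates. No probe set was called in opposite directions in eco1-W216G and WT.

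The difference of the 2 changes, eco1-W216G minus WT, was called for 153 probe sets (2.65%), 105 positive (1.82%) and 48 negative (0.833%). Of the 105, 104 had fallen in WT, with medians over the 105 of -0.15 in eco1-W216G and -1.48 in WT. The exception was PHO5, which rose in eco1-W216G while its WT change was -0.13, a difference of 1.07 (adjusted p = 0.0403 from limma). All 48 negative differences had risen in WT, with medians of 0.38 in eco1-W216G and 1.59 in WT. The count was 368 with the replicate number as a block and 333 with a random block for each culture. Without 1 array the count lay between 78 and 148, and it was 78 and 80 without the eco1-W216G 55 min arrays of replicates 3 and 1, 88 without the eco1-W216G 15 min array of replicate 1 and 79 without the WT 15 min array of replicate 1.

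Ribosomal protein genes held many of these differences. The difference was positive and called for 24 of 75 large subunit genes and 17 of 53 small subunit genes, beside 1.82% of all probe sets. WT medians were -0.85 and -0.86, and 56 and 37 of these genes had fallen there, beside 13% of all probe sets in WT. ASC1, which sits on the small subunit, read 14.21, 14.07 and 14.15 at 55 min and 14.56, 14.36 and 14.38 at 15 min in eco1-W216G. In WT it read 12.87, 13.03 and 12.92 at 55 min and 14.36, 14.35 and 14.32 at 15 min. For this gene arrays of both strains were close at 15 min and far apart at 55 min, and the difference was 1.11 (adjusted p = 0.000746 from limma). RPS20 had changes of -0.37 in eco1-W216G and -1.80 in WT, a difference of 1.43. For the assembly genes the medians were 0.52 and 0.51 in eco1-W216G against 1.28 and 1.38 in WT, and 0 of 64 and 2 of 71 differences were called. Mean levels of the 40S assembly genes at 15 min, 9.93, 9.23 and 10.04 in eco1-W216G, were above the 7.39, 7.23 and 7.48 in WT, and mean levels of the large subunit proteins were 13.54, 13.19 and 13.44 in eco1-W216G and 12.96, 12.65 and 12.71 in WT, so that for both lists the strains began the interval at different levels.

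The largest differences included stress, cell wall and nutrient genes. As lists, 41 general stress genes had a median difference of 0.03 and 40 cell wall genes -0.045. Calls were 2 positive and 0 negative in the former, and 4 positive and 2 negative in the latter. Over all probe sets 1.82% were positive and 0.833% negative. For 31 chaperone and heat shock genes the median difference was 0.34, with 3 positive calls and 0 negative. AGP1 had changes of -1.27 in eco1-W216G and -4.24 in WT, a difference of 2.96 (adjusted p = 0.000398 from limma). HSP26 had changes of -0.35 and -3.09 (difference 2.74), SSA4, an inducible Hsp70 chaperone, -0.56 and -2.50 (difference 1.94), TIR1, a cell wall mannoprotein, -0.71 and -3.49 (difference 2.79), and RSB1, a sphingoid base transporter, -0.16 and -3.01 (difference 2.85). At 55 min HSP26 read 13.54, 13.14 and 13.69 in eco1-W216G and 10.29, 11.08 and 10.35 in WT. At 15 min the strains overlapped, with 13.72, 13.79 and 13.91 in eco1-W216G and 13.76, 13.95 and 13.26 in WT. In eco1-W216G HSP26 had already read 13.35, 13.33 and 13.98 at time 0, in rich medium. At the other end HXT1 had changes of 1.14 and 3.62 (difference -2.48), the phosphate transporter PHO84 0.07 and 2.54 (difference -2.46) and RPA12, of RNA polymerase I, 0.43 and 2.41 (difference -1.98). PHO84 read 14.41, 14.45 and 14.50 at 55 min and 14.40, 14.32 and 14.42 at 15 min in eco1-W216G. In WT it read 14.24, 13.63 and 14.29 at 55 min and 11.76, 10.54 and 12.24 at 15 min. Other genes also began the interval apart, by their 15 min means in eco1-W216G and WT. These were 11.32 and 9.08 for HXT1, 10.98 and 7.80 for RPA12, 11.62 and 13.43 for TIR1 and 7.64 and 9.33 for RSB1. The means were closer for AGP1 (13.75 and 13.99) and SSA4 (13.27 and 13.64).

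Of the probe sets called in eco1-W216G, 7 of the 78 that rose and 3 of the 59 that fell differed in their change from WT, beside 2.65% of all probe sets. Among the 7, 6 had a smaller change in eco1-W216G, as had all 3. The 6 were PDC6, TEA1, ATM1, SNZ1, BDS1 and YIL092W, and the 3 were AGP1, HXT4 and PTR2. BIO5 changed by 1.73 in eco1-W216G and 0.87 in WT, a difference of 0.86 that did not pass (adjusted p = 0.4), and LYS9 by 0.90 and 1.07, a difference of -0.18. PGM2 changed by -1.34 and -0.81, a difference of -0.53 (adjusted p = 0.522). For both BIO5 and PGM2 the list median went the other way, with the larger change in WT. Trehalose and glycogen genes had medians of -0.62 in eco1-W216G and -0.88 in WT, and vitamin B6, thiamine and biotin genes 0.17 and 0.42. Against scc2-D730V 16 probe sets differed (0.278%), 13 positive (0.226%) and 3 negative (0.0521%), among them AGP1 (2.73), HSP26 (2.78) and SSA4 (1.85), and the count was 97 without the scc2-D730V 15 min array of replicate 1, 58 without the 55 min array of that replicate, and 5 to 9 without the eco1-W216G 55 min arrays of replicates 3 and 1, the eco1-W216G 15 min array of replicate 3, and the scc2-D730V arrays of replicate 3.

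**Figure D4:**
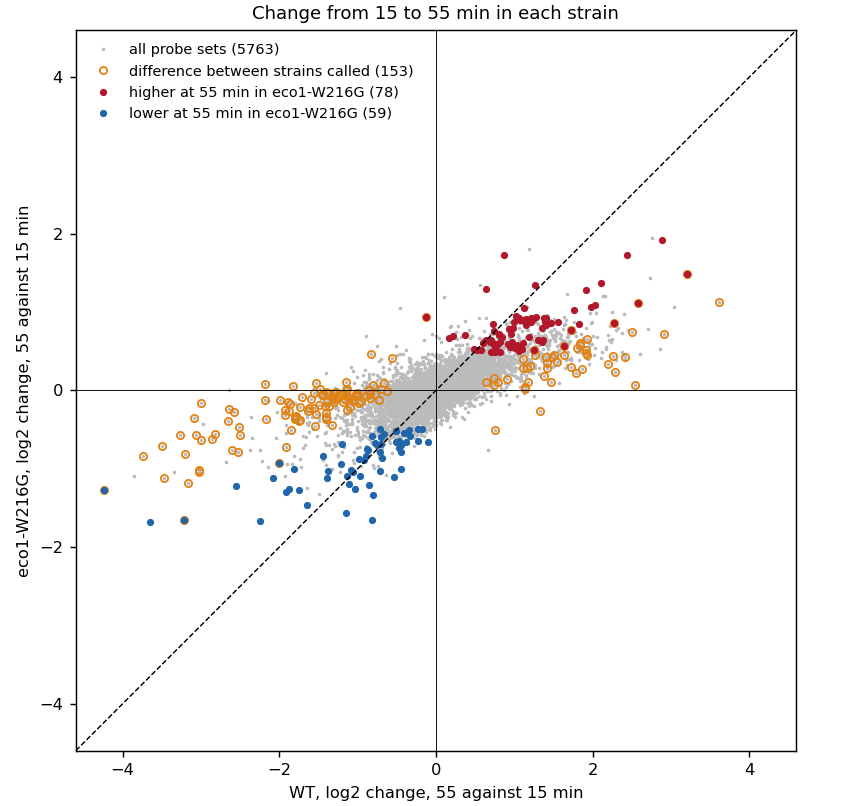
Log2 change from 15 to 55 min in eco1-W216G (vertical axis) and WT (horizontal axis) for 5763 probe sets, grey points. Red and blue points are the 78 and 59 called in eco1-W216G, orange rings the 153 whose change differed between the strains, and the dashed line marks equal change. The rings lie nearer to 0 on the eco1-W216G axis than on the WT axis, except PHO5 (0.93 in eco1-W216G, -0.13 in WT).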

How the data were processed

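RNA of 12 groups (3 strains at 4 times) was hybridised to Affymetrix Yeast Genome 2.0 arrays, 3 a group. Per the methods the values come from RMA (no version given in the sources used here), and the deposited intensity of a probe set is on a linear scale (17.3 to 43883). These were taken to log2 and tested with limma 3.58.1 in R 4.3.3, in a model with a coefficient per group (24 residual degrees of freedom, prior 3.71) and Benjamini-Hochberg adjustment within each contrast. The 51 control probe sets were left out and 5763 tested, 5498 of them with a gene symbol (5449 genes) and 265 with none. Of those, 47 are reporter probe sets, left out in an alternative chosen after seeing the data. In lists the brightest probe set stood for a gene. Positions are RefSeq's for assembly R64. The number of arrays limits the precision.

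The genes named are the 12 largest increases and decreases among called genes with separate arrays, the 5 largest differences from WT each way, up to 4 genes with the smallest p of each list that held a call (all genes of lists of up to 12) and ECO1, GCN4, SNO1, SNZ1 and BAR1. Other called genes were named after their values were seen. The members and the 51 lists were chosen with earlier results of these data known. By the paper's account cultures were moved to the new medium and sampled in turn, so the times of a strain are repeated samples. The labels do not say whether the same replicate number marks the same culture. The model ignores such pairing, and the counts with it as a block are given below. Promoter motifs were not searched, since no sequence was used here. Alternatives changed the arrays fitted, the pairing, the filter, the normalization, the variance model, the array weights and the thresholds. The procedure was tested on simulated data.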

Additional observations from a re-analysis of the deposited data

Results flagged for a closer look

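Among the genes followed, 13 are given here because their change from 15 to 55 min in eco1-W216G differed from that in WT by limma (adjusted p under 0.05 and at least 1.4-fold). Of these, 10 were followed because they had the 5 largest such differences each way, so their number is no further evidence. The differences, eco1-W216G minus WT on the log2 scale, were 2.96 for AGP1, 2.91 for YMR206W, 2.85 for RSB1, 2.79 for TIR1, 2.74 for HSP26 and 1.56 for HXT4, all of which had fallen in WT. They were -2.48 for HXT1, -2.46 for PHO84, -2.19 for RTP1, -2.05 for BUD22, -1.98 for RPA12, -1.72 for PDC6 and -1.46 for TEA1, all of which had risen in WT.

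At 15 min YMR206W read 7.51, 8.83 and 7.95 in eco1-W216G and 11.41, 11.43 and 11.13 in WT, and RTP1 read 9.78, 9.51 and 10.27 in eco1-W216G and 6.79, 6.58 and 6.88 in WT. In contrast, AGP1 read 13.69, 13.80 and 13.78 in eco1-W216G and 13.89, 13.84 and 14.25 in WT at that time, so the strains started apart for the first genes and close together for AGP1. No test for outlying arrays was run in groups of 3.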

How the results depend on the processing

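The counts depend on the settings. In the order higher, lower, 35 against 15 min, 55 against 35 min, difference from WT and difference from scc2-D730V, they were 78, 59, 2, 0, 153 and 16. With the replicate number within each strain as a block they were 140, 108, 4, 1, 368 and 56, and with the culture as a random block (correlation 0.243) 154, 117, 9, 1, 333 and 49. All 78, 59 and 153 calls were among those of both blocks. Same-numbered arrays at 15 and 55 min of eco1-W216G had residual correlations of 0.030, 0.416 and 0.649, and the highest between different numbers was 0.167. With array weights, whose estimation gave a convergence warning, they were 209, 227, 171, 3, 697 and 384. From the arrays of the compared groups alone 99 were lower, 0 changed by 35 min, 232 differed from WT and 7 from scc2-D730V. At 2-fold 13 were higher, 26 lower and 1 changed by 35 min, and at an adjusted p under 0.001 there were 4, 1 and 0, with 9 and 0 differences. Changes by 35 min were 1 with arrays centred on their medians, with trend and robust variance, and without reporter probe sets.

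With 1 array left out, the counts ranged from 16 to 58 higher, from 7 to 45 lower, from 0 to 2 by 35 min, from 0 to 1 after it, from 78 to 148 against WT and from 5 to 97 against scc2-D730V. Without the eco1-W216G 15 min array of replicate 2 the uncalled changes of BUD22 and BAR1 turned to -0.0833 and 0.0217. Each of 79 changes followed was read in the 1 omission that brought it nearest to 0. In that omission 26 kept their side of the threshold and 51 lost it. No other setting turned the sign of a change followed. Median centring changed the sign of 1 of 51 list medians and quantile normalization of 4, all near 0, and left the median change of all probe sets within 0.02 of its value of 0.01 (log2).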

Other observations

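Several called genes lie side by side, which was noticed in the results and not tested. BSC5 and YNR068C are neighbours on chromosome XIV between 760067 and 762592, and rose by 1.30 and 1.34. UGA3 and GLT1 lie between 149203 and 157904 on chromosome IV. AAD3 was called through 3 probe sets, with changes of 0.85, 0.61 and 0.55, in a family of near-identical genes.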
